A study of Mus musculus with 8 samples.

Results

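Interleukin-6 (IL-6) and its relatives signal through gp130, a receptor chain that the whole cytokine family shares and that is encoded by Il6st. When a ligand draws gp130 together with a partner chain, JAK kinases bound to the receptors are activated and phosphorylate STAT3, which enters the nucleus and switches on target genes. One of these targets, Socs3, encodes an inhibitor that binds gp130 and JAK and shuts the signal off, so its transcript is widely read as a trace of recent STAT3 activity. The 10 genes described here cover that route by role. They are the receptor chains Il6st, Osmr and Lifr, the kinases Jak1, Jak2 and Tyk2, the transcription factor Stat3, and the feedback and target genes Socs3, Pim1 and Bcl3. They were picked by gene symbol from the 27179 genes in the table, by a rule that uses no measured value but was written with earlier results of these data known, and all 10 passed the filter on low expression.

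RNA was sequenced from 8 subcutaneous C26 tumors grown in male CD2F1 mice, with 4 tumors from cxC26 scr cells and 4 from cxC26 IL6KOs1 cells, to ask how loss of IL-6 in the cancer cells alters the tumor. C26 is a mouse colon carcinoma line and cxC26 is its cachexia-inducing form. The scr cells carried Cas9 with a scrambled guide RNA and an intact Il6 gene, whereas Il6 had been disrupted by CRISPR/Cas9 in the IL6KOs1 cells, which are 1 subclone. The mice, 13 to 18 weeks old and with Il6 intact in their own cells, were kept, by the sample labels, until cachexia developed. More knockout than control cells were implanted in other experiments of the study and those tumors were collected later. Cell number and day were not given for the sequenced tumors, so clone, cell number, tumor age and genotype cannot be told apart. Expression is given as log2 CPM, the log2 of the read count scaled to library size. The text calls a gene higher or lower in the cxC26 IL6KOs1 tumors where limma gave an adjusted p-value under 0.05 over the 13262 genes tested.

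Between 14158989 and 17048062 reads were counted per tumor. The targeted gene, Il6, had 326 to 438 reads in the cxC26 scr tumors and 56 to 86 in the cxC26 IL6KOs1 tumors. Reads of the host and of the disrupted gene are counted together. The colon carcinoma label was not mirrored by epithelial markers, since Epcam had at most 14 reads, Krt8 at most 15 and Krt19 at most 1 in any tumor. Krt18 and Cdh1 were low and called higher in the cxC26 IL6KOs1 tumors, with 21 to 30 against 140 to 282 reads and 17 to 37 against 45 to 87 reads. All 6 leukocyte markers and all 8 macrophage markers were higher in the cxC26 IL6KOs1 tumors, as were the 4 T cell markers tested of 6. Of 5 B and plasma cell markers, 2 were tested and 1 was higher. Summed leukocyte markers were at 212 to 251 CPM in the cxC26 scr tumors and at 417 to 513 CPM in cxC26 IL6KOs1 tumors 2 to 4, against 804 CPM in cxC26 IL6KOs1 tumor 1. The macrophage sum was 793 to 1054 CPM in the scr group and 1631 to 1773 CPM in tumors 2 to 4 of the other group, with 2907 CPM in tumor 1. T cell sums were 0.84 to 3.03 CPM in the scr tumors, 8.81 to 12.5 CPM in IL6KOs1 tumors 2 to 4 and 16.8 CPM in tumor 1. The B and plasma cell sums were 0.78 to 2.53, 5.94 to 19.5 and 69.4 CPM in the same order. Among 6 fibroblast markers, 3 were lower (Col3a1, Pdgfra and Pdgfrb) and 1 was higher (Lum), and their sums overlapped at 6489 to 8100 CPM against 4167 to 6713 CPM. In bulk tumors, fewer cells of a type and less RNA per cell cannot be told apart, and the part of cell composition in the results below was not tested. Since cxC26 IL6KOs1 tumor 1 stood apart, results that rest on it are given with and without it.

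Of the 10 genes, 4 were lower in the cxC26 IL6KOs1 tumors and 1 was higher. The lower genes were Bcl3, Osmr, Socs3 and Stat3, each without overlap between the groups, and the higher gene was Pim1, whose groups overlapped. The common chain gp130 and all 3 kinases did not pass the threshold. Of all genes tested, 39.8% passed it, with 19.1% higher and 20.7% lower, so that the count of 5 in 10 was near the background. The groups did not overlap for 37.1% of all tested genes and for 4 of the 10, all 4 of them lower. A change of at least 2-fold besides the adjusted p-value was seen in 10.2% of tested genes and here in Bcl3 and Osmr. The median log2 fold change was -0.19 over the 10 genes and -0.00 over all tested genes.

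**Figure D1:**
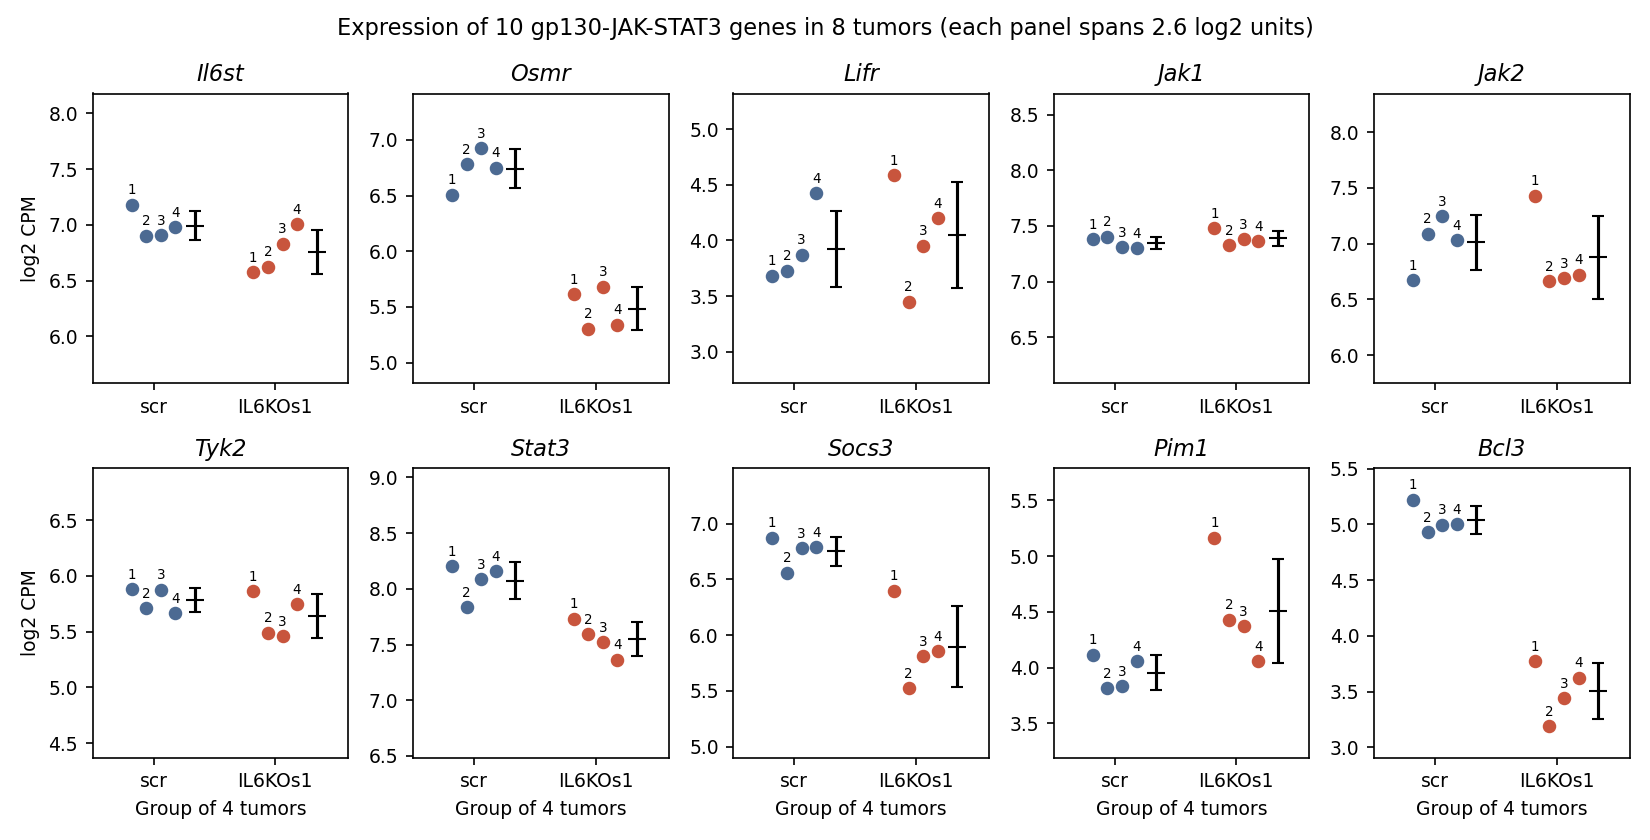
Log2 CPM of the 10 genes (vertical axis) in the 4 cxC26 scr tumors (blue) and the 4 cxC26 IL6KOs1 tumors (red), with 1 point per tumor, its replicate number above it, and the group mean ± SD beside the points in black. Osmr, Stat3, Socs3 and Bcl3 separate into groups that do not overlap, whereas the other 6 genes overlap and tumor 1 of the cxC26 IL6KOs1 group sits apart for Jak2 at 7.43.

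The sequence near the gene starts was examined, because STAT factors recognize the palindrome TTCNNNGAA (in which N is any base) and Stat3 and Socs3 are known STAT3 targets. RefSeq (GRCm38.p6) gave 12 promoter windows for the 10 genes, and the 250 bases before each start were searched. The motif reads the same on both strands. It was found in 1 window, that of Socs3, and in 7.02% of all 32851 windows of this length. The stricter form TTCCNGGAA, which is contained in TTCNNNGAA and occurs in 0.913% of all windows, was found in none of the 12, as was the palindrome with 1 more base in its spacer (5.85% of all windows). A match is a description of letters and not evidence of binding, and no match says only that these letters are not in this window. The motif of the Socs3 site begins 154 bases before the start used for this RefSeq window. It is shown in capitals with its flanks, and motif and flanks together are chr11:117969502-117969530 on the minus strand. GENCODE M21 places Socs3 starts at 117969186, 117969451 and 117970047, and the RefSeq gene reaches to 117970336. On the minus strand the site is thus ahead of the starts at 117969186 and 117969451. It is not ahead of 117970047 or 117970336, so it lies within the whole gene in both annotations. The only Socs3 window, 117969367 to 117969616, does not reach the bases ahead of 117970047 or 117970336. Those bases were not searched, so nothing is said here of motifs in them, of either form. Of the 4 lower genes, only the window of Stat3 overlaps no exon in GENCODE M21, and its 196 bases upstream of the whole RefSeq gene, chr11:100939595-100939790 on the minus strand, are shown beside the Socs3 site. They carry no match and therefore no capitals.
Socs3 site: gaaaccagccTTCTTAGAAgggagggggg
Stat3 upstream: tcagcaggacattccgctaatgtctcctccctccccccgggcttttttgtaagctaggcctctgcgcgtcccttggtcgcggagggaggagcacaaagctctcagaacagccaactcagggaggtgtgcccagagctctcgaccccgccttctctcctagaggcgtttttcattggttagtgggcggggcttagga

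Among the receptor chains, Osmr fell strongly and the other chains did not pass the threshold. Osmr encodes the oncostatin M receptor, which pairs with gp130 to bind oncostatin M (gene on chromosome 15, 6813568 to 6874968, minus strand). Its expression was 6.51, 6.78, 6.93 and 6.75 log2 CPM in cxC26 scr tumors 1 to 4 and 5.61, 5.30, 5.68 and 5.34 log2 CPM in cxC26 IL6KOs1 tumors 1 to 4. Every cxC26 scr tumor was above every cxC26 IL6KOs1 tumor. The log2 fold change was -1.26 ± 0.12 (SE, n = 4 each), which is 41.9% of the scr level, with a limma adjusted p of 1.61e-05 and a 95% interval of -1.51 to -1.0. An exact permutation test over the tumors (two-sided) gave p = 0.0286, the smallest value possible with 4 tumors against 4. Its log2 fold change was at the 2.63 percentile of all tested genes. Without cxC26 IL6KOs1 tumor 1 the log2 fold change was -1.30 with a limma adjusted p of 1.34e-05. Genes in the same 10 Mb stretch of chromosome 15 had a median log2 fold change of 0.18, opposite in sign to that of Osmr.

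Il6st, which encodes gp130 itself (chromosome 13, 112464070 to 112506860, plus strand), was at 7.18, 6.90, 6.91 and 6.98 log2 CPM in the scr tumors and at 6.58, 6.63, 6.83 and 7.0 log2 CPM in the IL6KOs1 tumors. Tumors 1 to 3 of the IL6KOs1 group were below all scr tumors, and tumor 4 was above 3 of them. A log2 fold change of -0.23 ± 0.11 (SE, n = 4 each) did not pass the threshold, with a limma adjusted p of 0.104 and an interval of -0.47 to 0.00. Without cxC26 IL6KOs1 tumor 4 it passed the threshold, at -0.32 with a limma adjusted p of 0.0311.

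Lifr encodes the leukemia inhibitory factor (LIF) receptor, the partner of gp130 for LIF (chromosome 15, 7090610 to 7197489, plus strand). Its transcript was scarce, with 208 to 330 reads in the scr tumors and 151 to 390 in the IL6KOs1 tumors. Its values were 3.68, 3.73, 3.87 and 4.42 log2 CPM in the scr group and 4.59, 3.45, 3.95 and 4.20 log2 CPM in the other. Tumor 4 was highest in the first group and tumor 1 in the second, and the groups overlapped throughout. With a log2 fold change of 0.12 ± 0.23 (SE, n = 4 each, limma adjusted p = 0.707), the interval of -0.39 to 0.63 held changes in either direction, and without cxC26 IL6KOs1 tumor 1 the sign turned to -0.06.

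Levels of different genes can be compared only per length, and CPM was therefore divided by the kilobases of exon of each gene. That length joins the exons of all annotated transcripts and can exceed the length of the transcript in use. The order of genes per length depends on this choice, whereas the difference between the groups in a gene does not. In the scr tumors Il6st was at 11.5 ± 1.1 and Osmr at 8.87 ± 1.0 CPM per kb (SD, n = 4 each), whereas Lifr was at 1.44 ± 0.37 CPM per kb. In the IL6KOs1 tumors the same chains were at 9.82 ± 1.4, 3.72 ± 0.49 and 1.59 ± 0.51 CPM per kb (SD, n = 4 each). Within each tumor the ratio of Osmr to Il6st per kb was between -0.80 and -0.11 on the log2 scale in the scr group and between -1.79 and -1.09 in the IL6KOs1 group. The partner chain was thus lower relative to the common chain in each IL6KOs1 tumor than in any scr tumor. The order of the chains per kb, Il6st above Osmr above Lifr, was the same in all 8 tumors. In log2 CPM, without division by length, Osmr was just above Il6st in scr tumor 3, at 6.93 against 6.91.

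**Figure D2:**
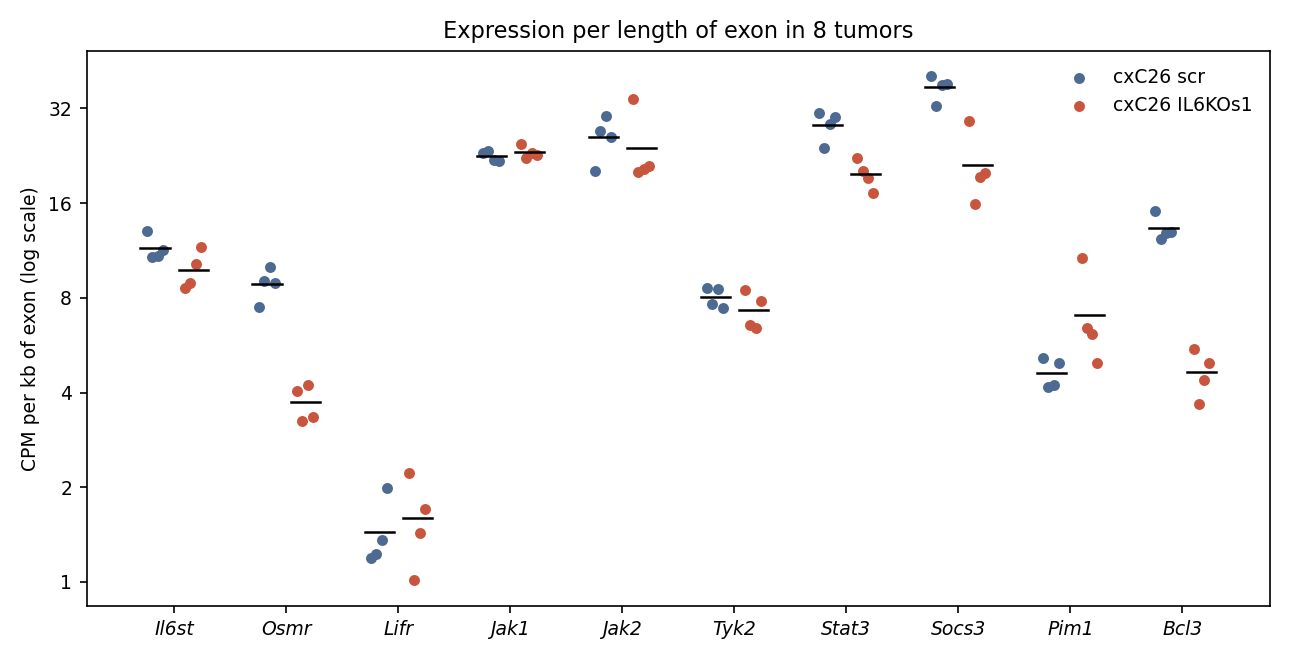
CPM per kb of exon (vertical axis, log scale) of the 10 genes in the cxC26 scr (blue) and cxC26 IL6KOs1 (red) tumors, with 1 point per tumor and a line at the mean of each group of 4. By group mean Socs3 and Stat3 lead in the scr tumors, although Jak2 is above Stat3 in scr tumors 2 and 3. Lifr lies lowest in both groups with means of 1.44 and 1.59.

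The 3 kinases carry the signal from the receptor to STAT3, and none of them passed the threshold. Jak1, the kinase on which gp130 signaling mainly relies (chromosome 4, 101151974 to 101265282, minus strand), was the most even of the 10 genes. It was at 7.38, 7.40, 7.31 and 7.30 log2 CPM in the scr tumors and at 7.48, 7.33, 7.38 and 7.37 log2 CPM in the IL6KOs1 tumors. Its log2 fold change was 0.04 ± 0.07 (SE, n = 4 each, limma adjusted p = 0.682), and the interval of -0.12 to 0.20 leaves room only for small changes. Raver2 and 3 predicted genes overlap Jak1, and the strand setting of the counting was not given in the sources used here, so a share of its reads may belong to them.

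Jak2, a kinase used by many cytokine and hormone receptors (chromosome 19, 29251803 to 29313095, plus strand), was at 6.67, 7.09, 7.25 and 7.03 log2 CPM in the scr tumors. Its values were 7.43, 6.66, 6.69 and 6.72 log2 CPM in the IL6KOs1 tumors, of which tumor 1 was above all scr tumors and the others were level with the lowest of them. Over the groups the log2 fold change was -0.13 ± 0.17 (SE, n = 4 each, limma adjusted p = 0.564). Without tumor 1 it was -0.32 with a limma adjusted p of 0.0569. Genes in the same 10 Mb stretch of chromosome 19 had a median of 0.12, and those of the whole chromosome one of 0.33. After removal of the chromosome median Jak2 was at -0.46 with a limma adjusted p of 0.0666. That was its lowest log2 fold change over 18 alternative analyses, and Jak2 did not pass the threshold in any of them.

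Tyk2, the remaining kinase of gp130 (chromosome 9, 21104068 to 21131393, minus strand), was at 5.88, 5.71, 5.88 and 5.67 log2 CPM in the scr tumors and at 5.86, 5.49, 5.46 and 5.75 log2 CPM in the IL6KOs1 tumors. Tumors 2 and 3 of the second group were below all scr tumors, and tumors 1 and 4 were within their range. Its log2 fold change was -0.14 ± 0.11 (SE, n = 4 each, limma adjusted p = 0.314), with an interval of -0.38 to 0.09. Per length, Jak2 and Jak1 were alike in the scr tumors at 25.9 ± 4.1 and 22.5 ± 0.81 CPM per kb (SD, n = 4 each), within the spread of Jak2, and Tyk2 was lower at 8.04 ± 0.61 CPM per kb. The means in the IL6KOs1 tumors were 24 ± 6.9, 23.2 ± 1.1 and 7.30 ± 1.0 CPM per kb (SD, n = 4 each) in the same order.

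Stat3 encodes the transcription factor of the route and is itself one of its targets (chromosome 11, 100886806 to 100939594, minus strand). It had 3700 to 4921 reads in the scr tumors and 2383 to 3452 in the IL6KOs1 tumors, and the predicted gene Gm46295 overlaps it. It was at 8.20, 7.84, 8.09 and 8.16 log2 CPM in the scr group and at 7.73, 7.59, 7.52 and 7.36 log2 CPM in the IL6KOs1 group. The highest IL6KOs1 tumor was below the lowest scr tumor by a narrow margin. Stat3 fell with a log2 fold change of -0.52 ± 0.10 (SE, n = 4 each), or 69.7% of the scr level, with a limma adjusted p of 0.00236 and an interval of -0.75 to -0.29. Without cxC26 IL6KOs1 tumor 1 it was -0.58 with a limma adjusted p of 0.00141. Neighboring genes were also slightly lower, with a median of -0.15 over the 10 Mb stretch, and removal of that median left -0.39 with a limma adjusted p of 0.00925.

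Socs3 encodes the feedback inhibitor of gp130 and JAK and carries the TTCTTAGAA site shown above (chromosome 11, 117966079 to 117970336, minus strand). It was at 6.87, 6.56, 6.78 and 6.79 log2 CPM in the scr tumors and at 6.40, 5.52, 5.81 and 5.85 log2 CPM in the IL6KOs1 tumors. All IL6KOs1 tumors were below all scr tumors, and tumor 1 was the nearest to them. The log2 fold change was -0.86 ± 0.16 (SE, n = 4 each), or 55.3% of the scr level, with a limma adjusted p of 0.00127 and an interval of -1.19 to -0.52. Leaving out cxC26 IL6KOs1 tumor 1 made the difference larger, at -1.02 with a limma adjusted p of 3.53e-05. Per length Socs3 was the highest of the 10 genes in the scr tumors, at 37.4 ± 3.3 CPM per kb against 28.4 ± 3.1 for Stat3 (SD, n = 4 each). The joined exons were 2891 bases for Socs3 and 9527 for Stat3, and in log2 CPM Stat3 was the higher in every tumor. Their order per kb thus rests on the length used. In the IL6KOs1 tumors these genes were at 21.1 ± 5.7 and 19.8 ± 2.1 CPM per kb (SD, n = 4 each) and did not differ beyond their spread. The log2 ratio of Socs3 to Stat3 per kb was tight in the scr tumors, from 0.35 to 0.44, and ranged from -0.35 to 0.39 in the IL6KOs1 tumors, where tumor 1 gave the highest value.

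Bcl3 encodes an atypical IκB protein that works with NF-κB subunits in the nucleus and is a known STAT3 target (chromosome 7, 19808462 to 19822824, minus strand). It fell most among the 10 genes. Its values were 5.22, 4.93, 5.0 and 5.0 log2 CPM in the scr tumors, from 454 to 622 reads, and 3.78, 3.19, 3.44 and 3.62 log2 CPM in the IL6KOs1 tumors, from 126 to 222 reads. The groups were separated by more than the range of either of them. The log2 fold change was -1.53 ± 0.14 (SE, n = 4 each), or 34.6% of the scr level, with a limma adjusted p of 1.40e-05 and an interval of -1.83 to -1.23. Genes of the same 10 Mb stretch of chromosome 7 had a median of -0.35, and after its removal Bcl3 was at -1.15 with a limma adjusted p of 8.81e-05. Without cxC26 IL6KOs1 tumor 1 it was -1.62 with a limma adjusted p of 4.90e-06. The predicted gene Gm16174 overlaps Bcl3.

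Pim1 encodes a serine/threonine kinase that promotes survival and is also a known STAT3 target (chromosome 17, 29490785 to 29496111, plus strand), yet it was the only one of the 10 genes to be called higher. It was at 4.12, 3.81, 3.83 and 4.06 log2 CPM in the scr tumors and at 5.17, 4.43, 4.37 and 4.06 log2 CPM in the IL6KOs1 tumors. Tumor 1 was far above the others, tumors 2 and 3 were above all scr tumors, and tumor 4 was within the scr range. Pim1 had a log2 fold change of 0.55 ± 0.20 (SE, n = 4 each, limma adjusted p = 0.0467), and the exact permutation test (two-sided) gave p = 0.0571. The predicted gene Gm26885 overlaps Pim1. The call was lost in 11 of 18 alternative analyses, among them leaving out any tumor except cxC26 IL6KOs1 tumor 4. Without cxC26 IL6KOs1 tumor 1 the log2 fold change was 0.33 with a limma adjusted p of 0.0808. Without the scr tumors 1 to 4 in turn the limma adjusted p was 0.0551, 0.109, 0.109 and 0.0725, and without cxC26 IL6KOs1 tumors 2 and 3 it was 0.0673 and 0.0644. The calls of Osmr, Stat3, Socs3 and Bcl3 were kept in all 18 alternatives.

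**Figure D3:**
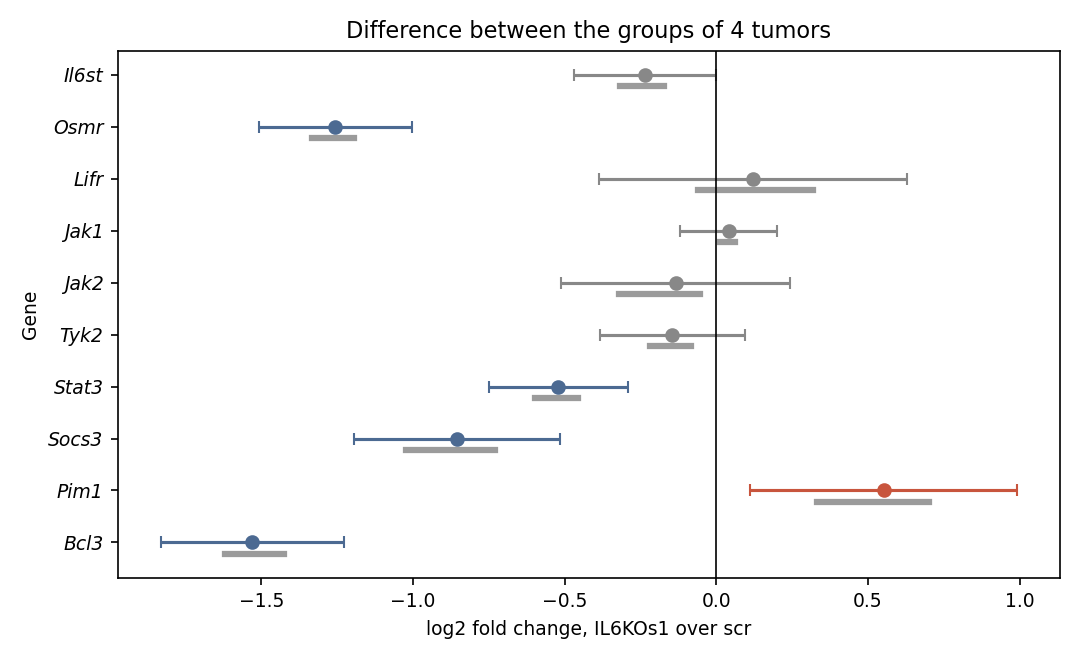
Log2 fold change of each gene (horizontal axis, cxC26 IL6KOs1 over cxC26 scr, 4 tumors each), with points at the limma estimate, thin bars for its 95% interval and thick grey bars for the range over leaving out each tumor in turn. Blue marks genes called lower, red the gene called higher and grey those not called. Bcl3 at -1.53 and Osmr at -1.26 lie farthest from 0, and the grey bar of Lifr crosses it.

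The behavior of cxC26 IL6KOs1 tumor 1 recurred across these genes. It was the highest of its group for 8 of the 10, all except Il6st and Osmr, against 28.0% of all tested genes. For Pim1 it lay 0.88, for Jak2 0.74, for Lifr 0.72 and for Socs3 0.67 log2 units above the mean of the other 3 tumors of its group. Its leukocyte, macrophage, T cell and B and plasma cell marker sums, given above, were also the highest of the 8 tumors. Whether these cells account for the higher values was not tested.

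The other genes of the pathway were taken from 5 lists with 66 genes in the table, of which 58 were tested. Of these, 11 were higher and 18 were lower, with a median log2 fold change of -0.05, again beside 39.8% of all tested genes.

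The ligands of the gp130 family were mostly lower. Of 7 tested, 3 were lower (Il6, Il11 and Lif), 1 was higher (Osm) and 3 did not pass the threshold, Ctf1 and Clcf1 among them, with a median of -0.35. Il11, the gene for interleukin-11, was at 9.07, 7.95, 8.37 and 8.45 log2 CPM in the scr tumors and at 4.81, 4.51, 4.80 and 4.96 log2 CPM in the IL6KOs1 tumors, so that the groups were far apart. Its log2 fold change was -3.69 ± 0.19 (SE, n = 4 each, limma adjusted p = 3.80e-07). Lif, the ligand of the Lifr product, was at 6.18, 5.48, 5.77 and 5.73 log2 CPM against 4.38, 4.29, 4.47 and 5.02 log2 CPM, without overlap, with a log2 fold change of -1.25 ± 0.18 (SE, n = 4 each, limma adjusted p = 0.000276). Il6 itself was at 4.42, 4.33, 4.73 and 4.83 log2 CPM against 1.99, 2.03, 2.46 and 2.04 log2 CPM, a log2 fold change of -2.45 ± 0.16 (SE, n = 4 each, limma adjusted p = 1.76e-06).

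Osm, the gene for oncostatin M, moved opposite to its receptor gene Osmr. It had few reads, 7 to 17 in the scr tumors and 16 to 59 in the IL6KOs1 tumors, and the groups overlapped. Its log2 fold change was 1.39 ± 0.44 (SE, n = 4 each, limma adjusted p = 0.0275). The call was lost without scr tumor 1 (1.13, limma adjusted p = 0.0692), scr tumor 4 (1.41, 0.0515), IL6KOs1 tumor 1 (1.10, 0.0709) or IL6KOs1 tumor 2 (1.2, 0.0772). It was also lost without a filter on low expression (limma adjusted p = 0.107) and under quantile normalization (1.18, limma adjusted p = 0.0590), and with a pseudocount of 1 CPM the log2 fold change was 0.80. Ctf1 and Clcf1 were at -0.35 and 0.16 with limma adjusted p of 0.178 and 0.236. Cntf, Il27 and Ebi3 did not pass the filter, with at most 33 reads in any tumor.

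Of the other receptor chains, Il6ra and Il11ra1 were higher and Il27ra did not pass the threshold. Il6ra encodes the IL-6 binding chain that hands the cytokine to gp130. It was at 4.51, 4.39, 4.83 and 4.82 log2 CPM in the scr tumors and at 5.41, 5.11, 5.09 and 4.85 log2 CPM in the IL6KOs1 tumors, with tumor 4 just above the scr range. Its log2 fold change was 0.48 ± 0.14 (SE, n = 4 each, limma adjusted p = 0.0192), and the call was lost without scr tumor 2 (0.39, limma adjusted p = 0.0589). Il11ra1, the corresponding chain for interleukin-11, rose by 0.67 ± 0.13 on the log2 scale (SE, n = 4 each, limma adjusted p = 0.00225). That value is uncertain, because the mouse genome holds near-identical copies of this gene and Ccl27a overlaps it. Il27ra was at -0.04 ± 0.19 (SE, n = 4 each, limma adjusted p = 0.880). Cntfr and Il31ra had at most 3 reads in any tumor and were not tested.

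Of 6 other JAK and STAT genes tested, 3 were higher and 1 was lower, with a median of 0.47. Stat2, which transmits interferon signals, rose by 1.12 ± 0.23 on the log2 scale (SE, n = 4 each, limma adjusted p = 0.00248). It was at 6.17 log2 CPM in cxC26 IL6KOs1 tumor 1, at 5.05 to 5.67 in the other 3 of that group, and at 4.07 to 4.90 in the scr tumors. Without tumor 1 its log2 fold change was 0.92 with a limma adjusted p of 0.00266. Stat2 is on chromosome 10, whose genes had a median of 0.32. Over all 18 alternatives its log2 fold change was at least 0.80 and its limma adjusted p at most 0.019, and the call was kept. Stat6, which serves interleukin-4 and interleukin-13, rose by 0.60 ± 0.09 (SE, n = 4 each, limma adjusted p = 0.000304). Genes of its chromosome, 10, had a median of 0.32, and after removal of that median Stat6 was at 0.27 with a limma adjusted p of 0.0263. Jak3, the kinase of common gamma chain receptors, fell by 0.50 on the log2 scale (SE 0.14, n = 4 each, limma adjusted p = 0.0152), a call lost without scr tumor 4 (limma adjusted p = 0.0513). Stat3 was thus lower in the same tumors in which Stat2 and Stat6 were higher.

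Among the 16 other JAK-STAT inhibitors, 3 were higher and 7 were lower, with a median of -0.18. Ptpn6, which encodes the phosphatase SHP-1 of blood cells, rose by 1.22 ± 0.21 on the log2 scale (SE, n = 4 each, limma adjusted p = 0.000935), and Pias3, an inhibitor of STAT3, by 0.32 ± 0.08 (SE, n = 4 each, limma adjusted p = 0.010). Ptpn6 was at 6.37 log2 CPM in cxC26 IL6KOs1 tumor 1 and at 5.05 to 5.69 in the others of its group. Without that tumor its log2 fold change was 0.99, and the call was kept. Sh2b3, an adaptor that restrains JAK2, was at -0.71 ± 0.12, Pias2 at -0.37 ± 0.08 and the phosphatase gene Ptpn1 at -0.34 ± 0.13 (SE, n = 4 each, limma adjusted p = 0.000728, 0.00399 and 0.0485). The Ptpn1 call was lost in 12 of 18 alternatives, among them leaving out any scr tumor except tumor 2 or any IL6KOs1 tumor except tumor 1, with log2 fold changes of -0.46 to -0.26 over the tumors left out. Named after their values were seen, the STAT5-induced inhibitors Socs2 and Cish moved in opposite directions, at 0.99 ± 0.22 and -1.35 ± 0.24 (SE, n = 4 each, limma adjusted p = 0.00455 and 0.00102). With 10 Mb window medians removed Socs2 was at 0.64, with a limma adjusted p of 0.0501. Leaving out each tumor in turn gave Socs2 log2 fold changes of 0.84 to 1.12 and kept its call. Socs1, the inhibitor closest to Socs3, was at 0.22 ± 0.12 (SE, n = 4 each, limma adjusted p = 0.173).

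Genes that have been reported as STAT3 targets in other settings did not move one way. Of 26 tested, 2 were higher, 7 were lower and 17 did not pass the threshold, with a median of -0.07. The leading decreases were Ier3, an early response gene, at -1.29 ± 0.21, Nfil3, a basic leucine zipper factor, at -1.07 ± 0.17, and Gadd45b, a stress response gene, at -0.56 ± 0.10 (SE, n = 4 each, limma adjusted p = 0.000579, 0.000589 and 0.000964). Each of these 3 was without overlap between the groups. Gadd45b is also on chromosome 10, and with the median of that chromosome removed it was at -0.89 with a limma adjusted p of 6.82e-05. The higher genes, named after their values were seen, were Lcn2 and Icam1, at 1.81 ± 0.26 and 1.06 ± 0.32 (SE, n = 4 each, limma adjusted p = 0.000308 and 0.0198). Without cxC26 IL6KOs1 tumor 1 the log2 fold change of Lcn2 was 1.63, and its call was kept. Icam1 was at 4.32 log2 CPM in cxC26 IL6KOs1 tumor 1 and at 2.67 to 3.08 in the others of its group, and without that tumor its log2 fold change was 0.70 with a limma adjusted p of 0.0176. Its call was lost without scr tumor 3 (limma adjusted p = 0.0539) or scr tumor 4 (limma adjusted p = 0.0553). The lists of inhibitors and targets thus held genes in both directions. Among the 10 genes themselves the only higher call was that of Pim1, which was lost in 11 of 18 alternatives.

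**Figure D4:**
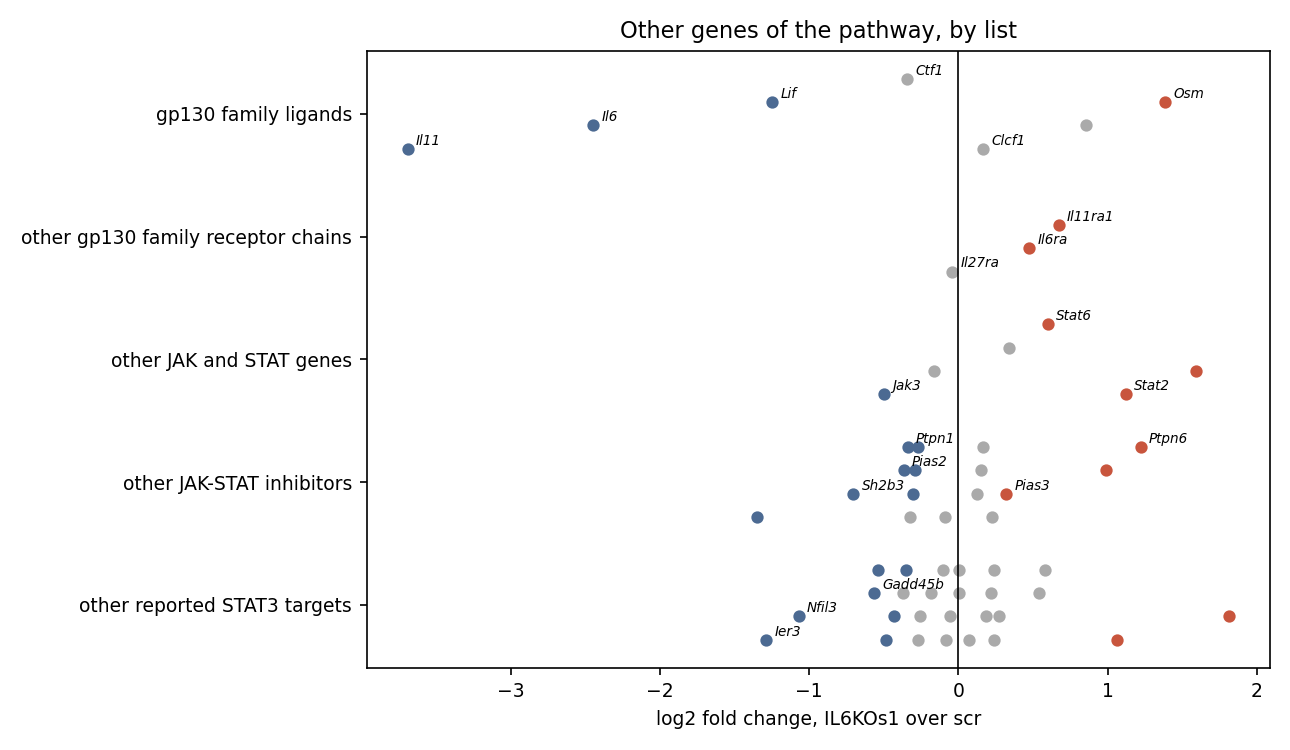
Log2 fold change (horizontal axis, cxC26 IL6KOs1 over cxC26 scr, 4 tumors each) of the 58 other genes tested, with 1 point per gene in rows by list and heights within a row spread for legibility. Blue points were called lower, red higher and grey neither. Names mark genes given in the text, except Socs1, Socs2, Cish, Lcn2 and Icam1, which carry no name. Il11 at -3.69 and Il6 at -2.45 lie farthest to the left, and the lists of inhibitors and targets spread to both sides of 0.

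The genes whose profiles over the 8 tumors were most like those of the 10 genes were found among 9997 others whose mean was 3 log2 CPM or more. Likeness was the root mean square (RMS) difference between the profiles after each was centred on its own mean, so genes with the same difference between groups score as alike. Socs3 was closest to Rhbdf2 and Sash1, at 0.075 and 0.083 log2 units, and Stat3 to Ergic3 and Ncoa5, at 0.069 and 0.074. Osmr was closest to Kdm5b and Pros1, at 0.115 and 0.124, and Bcl3 to Rgs16 and P2ry2, at 0.111 and 0.137. Pim1 was closest to Neurl3 and Tnip1, at 0.112 and 0.126. For Jak2 they were Ppox and Gsap, at 0.107 and 0.114, for Il6st Pcx and Fkbp9, at 0.052 and 0.055, and for Tyk2 Telo2 and Myo18a, at 0.061 and 0.065. Jak1, being nearly flat, had 2176 genes within 0.15, with Gtpbp3 and Tmed9 closest at 0.029 and 0.032. Lifr had none that close, and C4b and Coro7 were nearest at 0.187 and 0.202. No gene of the 10 was among the closest 2 of another.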

How the data were processed

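RNA-seq of 8 tumors was grouped by title. The deposited values are log2 CPM for 27179 genes, which the authors made from paired reads by alignment to mm10 (HISAT2), counting per gene (featureCounts) and limma-voom. The strand setting was not given in the sources used here. Each log2 value holds an offset of 0.5 reads, from which whole reads were recovered (100% whole within 0.01). Totals were 14158989 to 17048062 reads per tumor (median 15384973), which limits precision for genes of few reads.

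Genes were tested if 4 or more of the 8 tumors reached 1 CPM, and the deposited values of these 13262 genes were fitted with limma 3.58.1 in R 4.3.3 (lmFit, eBayes with trend, no covariates). P-values were adjusted by Benjamini-Hochberg over all tested genes with a threshold of 0.05. For single values an exact permutation test (two-sided) was run over 70 splits of the tumors. The labels do not say that tumors came from separate mice, so p-values set the difference between groups against the spread between these tumors only. Variation between knockout clones is not covered, since the IL6KOs1 cells are 1 subclone. Gene positions and promoter windows came from RefSeq GRCm38.p6, and exon lengths and transcripts from GENCODE M21. Exon length joined all annotated exons of a gene, with overlaps counted once. The script was tested on simulated data.

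The members and the lists of pathway and marker genes were chosen with earlier results of these data known. Beside the 10 genes, the rule named all ligands and receptor chains, and from each other pathway list up to 3 higher and 3 lower genes whose mean reached 3 log2 CPM. Some genes named by this rule are not reported here. Alternatives were other filters, normalizations, variances and pseudocounts, a replicate block, leaving out each tumor, removal of regional medians and a 2-fold threshold.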

Additional observations from a re-analysis of the deposited data

Results flagged for a closer look

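Among 64 groups of 4 tumors examined for a single value far from the rest, where chance would give about 3.2 at a rate of 1 in 20, 5 were found. Of these, 3 were the cxC26 IL6KOs1 tumor 1. Jak2 was at 7.43 log2 CPM in this tumor and at 6.66 to 6.72 in the other 3 of its group. Jak3 was at 6.97 in the same tumor against 6.40 to 6.42, and Stat6 at 7.31 against 7.04 to 7.08. Il6 was at 2.46 log2 CPM in cxC26 IL6KOs1 tumor 3 and at 1.99 to 2.04 in the others of the group. Ctf1 was at 3.11 log2 CPM in cxC26 scr tumor 4 and at 2.68 to 2.70 in the other scr tumors.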

How the results depend on the processing

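Adding a 2-fold threshold left 2 of the 5 called members, Osmr and Bcl3. Leaving out each tumor in turn gave 4 to 6 called members, 24 to 29 called pathway genes and 4223 to 5214 called genes in all. Without a filter on low expression 4 members, 22 pathway genes and 4413 genes were called by limma. No other count moved by more than 1.5 times. Values that changed sign had none of them passed the threshold. Lifr, at 0.12, ranged from -0.059 (without cxC26 IL6KOs1 tumor 1) to 0.32 on leaving out each tumor, and went to -0.0062 with chromosome medians removed and to -0.024 with 10 Mb window medians removed. Jak1 went to -0.043 and Socs1, at 0.22, to -0.0014 with window medians removed. Clcf1 went to -0.17 with chromosome medians removed and to -0.16 with window medians removed. Il27ra ranged from -0.097 to 0.064 on leaving out each tumor, being 0.064 without scr tumor 2 and 0.032 without IL6KOs1 tumor 2. Removal of regional medians also ended the calls of Il6ra (0.30 and 0.33), Pias3 (0.14 and 0.07) and Ptpn1 (-0.26 and -0.09) by chromosome and by window. The cause was not tested. With the replicate number as a block, 5 members, 27 pathway genes and 5165 genes were called. Deviations of same-numbered tumors correlated between -0.06 and 0.06, so the numbers were not read as pairs. Genes of few reads, such as Osm, are limited by depth.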
